A study of Mus musculus with 99 samples.

Results

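Cadherins and protocadherins were followed from wild-type outer hair cells (OHCs) to outer hair cells that ectopic Tbx2 converts towards inner hair cells (cIHCs). The members were all symbols made of Cdh or Pcdh and a number, together with the numbered Pcdha, Pcdhac, Pcdhb, Pcdhga, Pcdhgb and Pcdhgc genes. Cdh23 and Pcdh15, which build the tip links of stereocilia, were left out. The rule found 89 of the 55291 genes in the count table: 22 classical and other cadherins, 10 non-clustered protocadherins and 57 clustered protocadherins. Pcdh11x, whose name ends in a letter, falls outside the rule.

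The data came from 99 single cells of C57BL/6 mouse cochleae, picked by hand for tdTomato fluorescence and sequenced with a Smart-seq protocol. The OHC group held 32 cells of postnatal day 30 from Slc26a5-CreER/+; Ai9/+ mice, in which an inducible Cre driven from an OHC gene switches on the tdTomato reporter. The cIHC group held 67 cells of postnatal day 42 from Slc26a5-CreER/+; Rosa26Tbx2/+ mice, in which the same Cre switches on Tbx2 in OHCs. Both groups carry the Cre allele, and age and genotype differ together, so their parts in a difference cannot be told apart. No label gives the animal of a cell, so a group stands as 1 sample and the groups were not tested against each other. Every difference below is a description of these cells. Xist reached 10 CPM in 4 OHCs and 55 cIHCs, and 4 Y-linked genes summed to at least 10 CPM in 24 OHCs and 12 cIHCs. These are the cells called below cells with Xist reads and cells with Y-linked reads, and some OHCs were in neither set. The sex of the cells' donors thus moves with the groups too, and its part in the results was not tested.

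Cadherins are calcium-dependent adhesion proteins. Classical cadherins bind the same cadherin on a neighbouring cell and are tied to actin by catenins; in the organ of Corti, E-cadherin (Cdh1) is known from the outer hair cell region and N-cadherin (Cdh2) from the inner. Clustered protocadherins lie in tandem as the alpha, beta and gamma clusters, each gene with its own promoter, and single neurons use small, partly random sets of them that act as a surface identity. The last genes of the alpha and gamma clusters, called C-type, are read in many neurons without that random choice.

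Levels are CPM, counts scaled to a common total. A pooled level is the summed count of a group over its total, and a log2 ratio is pooled cIHC over pooled OHC level. Intervals are exact at 95%. Those of levels and ratios cover counting error only and take each read as independent. Reads amplified without molecular identifiers do not count molecules independently, so these intervals are too narrow. Those of shares take the cells of a group as independent draws. None covers differences between animals. Total counts ran from 5656512 to 9287413 per OHC and from 4677682 to 13792672 per cIHC. The pooled Tbx2 level was 0.012 CPM for OHCs and 730.7 CPM for cIHCs, with reads in all 67 cIHCs. The summed OHC marker list had a median of 53540 CPM per cell in OHCs and 887 CPM in cIHCs, and the inner hair cell list 2447 and 12877 CPM. More genes had reads in a cIHC (median 8546, range 7081 to 11719) than in an OHC (6068.5, 4769 to 8567). Among the cells, 1 OHC (OHC 22) and 1 cIHC (cIHC 49) stood apart: 5 of 10 supporting cell markers had reads in each, with sums of 957 and 976 CPM against at most 244 and 110 CPM in the other cells of their groups, and mesenchyme markers summed to 1598 and 1699 CPM. Their hair cell marker sums were the lowest of their groups, and for results in which they hold many of the counts the value without them is given too. The spiral ganglion neuron list had a median of 232 CPM per cell in OHCs and 537 CPM in cIHCs. Whether any of its reads came from neurons was not tested.

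Of the 89 members, 68 had a read in some cell, 39 in OHCs and 63 in cIHCs. In 29 members reads were found only in cIHCs and in 5 only in OHCs. Among all genes with a read in any cell, 25.8% had reads in cIHCs and no OHC and 8.91% in OHCs and no cIHC. A larger share of cIHCs than of OHCs had reads in 52 of the 68 members, against 70.9% of all genes with a read. At least 10 pooled CPM in 1 or both groups were reached by 11 members. Of these, 4 were at least 2-fold higher in cIHCs (Cdh4, Cdh15, Cdh18 and Pcdhb17), where the background was 26.3% of genes past the same level, and 3 were at least 2-fold lower (Pcdhgb4, Pcdhgb8 and Pcdhgc4), where it was 14.3%. The remaining 4, Cdh13, Pcdh7, Pcdhga7 and Pcdhga12, lay between. The median log2 ratio of the 11 was 0.52, against 0.25 for all genes at that level. Without OHC 22 and cIHC 49, 10 members reached 10 CPM, of which 4 were at least 2-fold higher and 2 lower; Pcdhgb8 then stayed below the limit, at 8.47 CPM in OHCs. Pcdhga7 at 11.2 CPM and Pcdhb17 at 11.1 CPM were just inside the 10 CPM limit, and Cdh24 at 9.06 CPM and Pcdhgc5 at 8.79 CPM just outside.

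**Figure D1:**
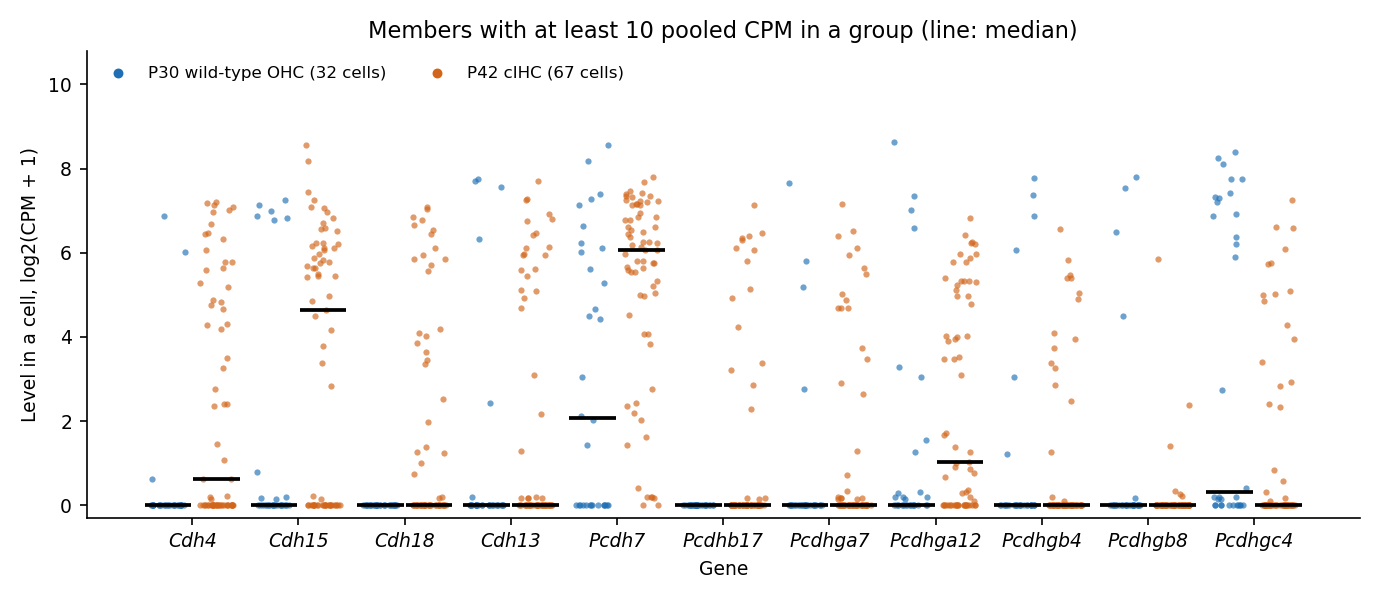
Level of the 11 members with at least 10 pooled CPM in a group, as log2(CPM + 1) in each of 32 OHCs (blue) and 67 cIHCs (orange); black lines are medians. For most members many cells lie at 0 in both groups; Pcdh7 is the member with reads in nearly every cIHC (65 of 67), and no OHC has reads of Cdh18 or Pcdhb17.

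The type I classical cadherins above 10 CPM, Cdh4 and Cdh15, were both higher in cIHCs. Cdh4, or R-cadherin (chromosome 2, 179442431 to 179899373, plus strand, GRCm38), was named for the retina. Its level per OHC ran from 0 to 116 CPM with a median of 0, and per cIHC from 0 to 147 CPM with a median of 0.528 CPM. Reads were found in 3 of 32 OHCs (9.38%, exact Clopper-Pearson interval 1.98 to 25.0) and 37 of 67 cIHCs (55.2%, 42.6 to 67.4). Thus most OHCs and many cIHCs were at 0 and the groups overlapped. Pooled levels were 5.27 and 27.7 CPM, a log2 ratio of 2.39 (2.31 to 2.48); OHC 6 held 67.5% of the OHC counts, and dropping the highest cell on each side gave 3.84. When each cIHC was set against each OHC, the cIHC was higher in 52.4% of pairs and the OHC in 7.04%.

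Cdh15, or M-cadherin, is best known from muscle precursors (chromosome 8, 122847966 to 122867397, plus strand). OHC levels reached 152 CPM from a lowest value and median of 0, and cIHC levels ran from 0 to 377 CPM around a median of 23.8 CPM. Reads were present in 10 OHCs (31.3%, 16.1 to 50.01) and 41 cIHCs (61.2%, 48.5 to 72.9). Cdh15 was thus found in a minority of OHCs and a majority of cIHCs, with overlapping ranges. Pooled levels of 22.5 and 47.7 CPM gave a log2 ratio of 1.08 (1.04 to 1.13), and the cIHC was higher in 51.3% of pairs and the OHC in 22.1%. This ratio sits at the 2-fold line: it was 0.89 with a TMM factor and 0.88 with median-of-ratios scaling. In cells with reads, the OHCs had the higher median, 111 against 58.1 CPM, the reverse of the order of the pooled levels.

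Cdh18, a type II cadherin known mainly from brain, had no read in any OHC and reads in 29 of 67 cIHCs (43.3%, 31.2 to 55.96). Counting 3 cells as the limit of a count of 0, this allows up to 9.38% of OHCs; the exact Clopper-Pearson limit is 10.9%. The cIHC levels ran from 0 to 135 CPM with a median of 0, and 18 cIHCs had at least 10 CPM. Cdh18 reads thus separate some cIHCs from every OHC, while most cIHCs were also at 0. The pooled cIHC level was 17.4 CPM, a log2 ratio of at least 10.45 against a floor of 3 counts over the OHC group. Across all genes with a read, 2.35% had reads in 10 or more cIHCs and in no OHC; 6 members did, Cdh18 and 5 beta protocadherins.

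Because Cdh18 is the non-clustered member with that pattern, its RefSeq promoter is shown (GRCm38.p6, chr15:23036213-23036482, plus strand). The 250 bases before the start and 20 from it on are printed, and the capital marks the RefSeq start base.
Cdh18: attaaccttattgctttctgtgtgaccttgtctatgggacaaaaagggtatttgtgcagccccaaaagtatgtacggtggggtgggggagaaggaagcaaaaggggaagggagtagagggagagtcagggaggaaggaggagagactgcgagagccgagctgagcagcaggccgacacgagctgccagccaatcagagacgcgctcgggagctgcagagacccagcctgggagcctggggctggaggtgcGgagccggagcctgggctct
The GENCODE M21 gene spans 22549022 to 23474418, so this start lies inside the annotated gene. The table of 300-base windows held 20 of the 89 members in 23 windows; Cdh4 was not among them. The letters GGTGTG or CACACC, the core of the site that T-box proteins bind, on both strands, occurred in 0 places of the Cdh18 window and in 2 of the 23 member windows. They occurred in 19.05% of all 32851 windows. No match says only that these letters are not in this window.

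Of the other cadherins, 1 reached 10 CPM. Cdh13, or T-cadherin, which is held by a lipid anchor and has no cytoplasmic tail, had pooled levels of 20.6 CPM (OHCs) and 23.6 CPM (cIHCs; log2 ratio 0.20, 0.15 to 0.25). It had reads in 6 OHCs and 28 cIHCs; similar pooled levels thus came from a smaller share of OHCs. OHC 22 held 27.03% of its OHC counts, and without OHC 22 and cIHC 49 the log2 ratio was 0.64. N-cadherin (Cdh2) stayed below 10 CPM, at 3.07 and 6.83 CPM, and had reads in 1 of 32 OHCs and 23 of 67 cIHCs. OHC 25 held all 743 OHC counts of Cdh2. E-cadherin (Cdh1) had 692 counts in OHCs, all in OHC 22, and 29 counts in cIHCs, 96.6% of them in cIHC 49. In all 31 other OHCs Cdh1 was thus at 0, and its reads lay almost wholly in OHC 22 and cIHC 49, the cells with the highest supporting cell marker sums. The part of RNA from supporting cells was not tested. Cdh24, a type II cadherin, was lower in cIHCs at 9.06 and 1.502 CPM, with reads in 9 OHCs and 7 cIHCs, and OHC 21 held 52.3% of the OHC counts. Cdh6 rested on single cells as well, with 99.9% of its OHC counts in OHC 1 and 71.3% of its cIHC counts in cIHC 49. Of the 22 cadherins, 5 had no read in any cell.

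Among the non-clustered protocadherins, Pcdh7 was the most widespread. It is a delta1 protocadherin, a subgroup with a long cytoplasmic tail (chromosome 5, 57717967 to 58133230, plus strand). OHC levels ran from 0 to 375 CPM around a median of 3.21 CPM, and cIHC levels from 0 to 223 CPM around a median of 65.7 CPM. Reads were present in 18 of 32 OHCs (56.3%, 37.7 to 73.6) and 65 of 67 cIHCs (97.0%, 89.6 to 99.6), or in 62.1% and 95.5% of cells thinned to 5770000 reads. Nearly every cIHC thus had Pcdh7 reads, while some OHCs had them and others did not. Of all genes with a read in any cell, 70.9% had reads in a larger share of cIHCs than of OHCs. The gap is therefore not read as particular to Pcdh7. The highest OHCs exceeded the highest cIHCs, and the pooled levels of 51.3 and 73.9 CPM gave a log2 ratio of 0.53 (0.50 to 0.56), within 2-fold. The cIHC was higher in 70.7% of pairs and the OHC in 28.03%. Part of Pcdh7 overlaps 4932441J04Rik on the other strand, which had 127 and 366 counts; the strand setting of the counting is not given in the sources used here.

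Pcdh1 and Pcdh9, the other delta1 members, stayed below 10 CPM. Pcdh1 had reads in 5 OHCs and 29 cIHCs at pooled levels of 4.25 and 7.27 CPM. Pcdh9 had reads in 6 OHCs and 4 cIHCs at 7.14 and 1.24 CPM. The delta2 protocadherins were nearly absent: none of the 5 had reads in more than 1 cell of a group. Pcdh19, an X-linked delta2 gene linked to epilepsy, had all of its OHC counts in OHC 16 and all of its cIHC counts in cIHC 49. Pcdh12 and Pcdh20 had no read in any cell. These low members thus show which cells held reads rather than a level of the group.

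All 57 clustered protocadherins lie on chromosome 18 in GRCm38 (GENCODE M21): the alpha cluster at 36930184 to 37187661, the beta cluster at 37264938 to 37524479 and the gamma cluster at 37661793 to 37841873. Alpha and gamma genes each join a first exon of their own to constant exons shared by their cluster, whereas each beta gene is a single unit. In the annotation each gamma gene overlaps 25 or more other genes, and Pcdhga10 has 0 exon bases of its own. Counts of a named alpha or gamma gene are therefore uncertain where reads from shared exons could be assigned; no cell had reads in all 22 gamma genes, and the most in a cell were 7 in OHCs and 10 in cIHCs. How the authors treated reads shared by several genes is not given in the sources used here.

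The number of clustered protocadherins with reads ran from 0 to 7 per OHC, with a median of 2.5, and from 0 to 14 per cIHC, with a median of 5. At least 1 was present in 30 of 32 OHCs and 66 of 67 cIHCs. At least 6 were present in 2 OHCs (6.25%) and 27 cIHCs (40.3%), and 12 of 67 cIHCs had more than any of the 32 OHCs. The distributions overlapped: the cIHC had more in 74.95% of pairs, the OHC had more in 14.6%, and 10.5% were tied. The medians were 2 and 5 in cells thinned to 5770000 reads, which left 29 OHCs and 66 cIHCs, and 1 and 2 when a gene needed at least 10 CPM. With that last rule the range was 0 to 5 in OHCs and 0 to 8 in cIHCs, and the cIHC had more in 64.6% of pairs.

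The number of all genes with reads moved with this result. Thinned cells had medians of 5891 genes in OHCs and 8329 in cIHCs. Per 1000 genes with reads, the clustered protocadherins numbered 0.405 in the median OHC and 0.557 in the median cIHC, and the cIHC was higher in 70.4% of pairs. Within groups, cells with more genes also held more clustered protocadherins (across 32 OHCs, Pearson r = 0.55 and Spearman rho = 0.44, and r = 0.28 without the 2 farthest cells; across 67 cIHCs, r = 0.60, rho = 0.53 and r = 0.56). These correlations describe cells in which both numbers come from 1 library. In the range both groups shared, 7081 to 8567 genes, 2 OHCs and 36 cIHCs had medians of 3.5 and 4, with too few OHCs for a comparison. How far the larger number in cIHCs follows from the larger number of genes read was not tested.

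**Figure D2:**
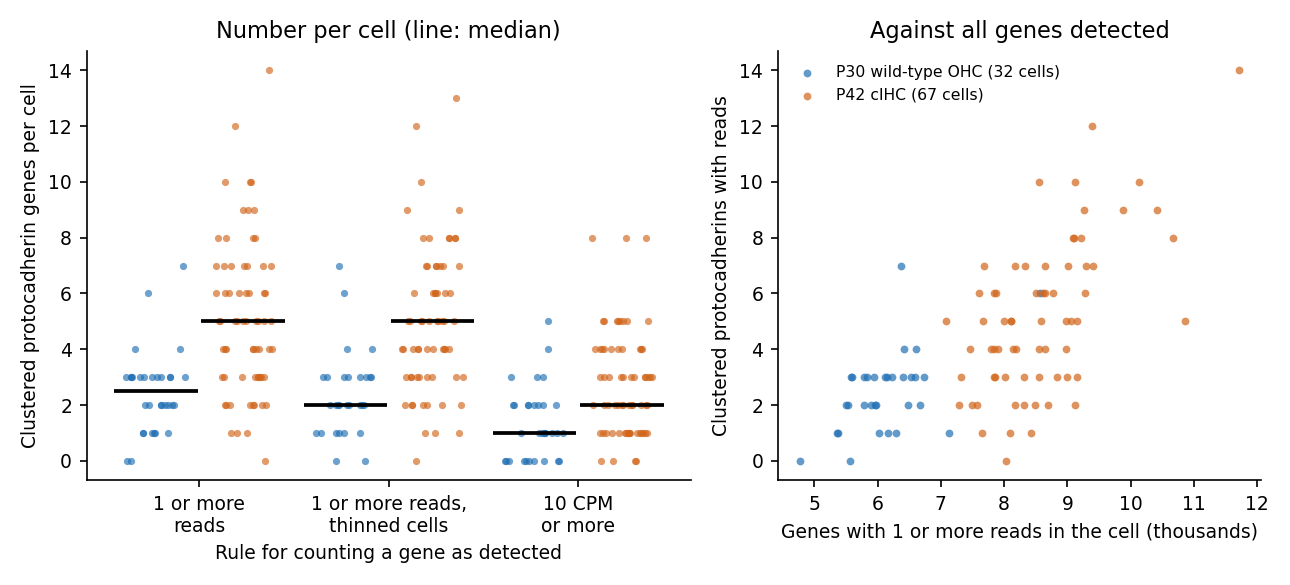
Left, clustered protocadherin genes per cell under 3 rules of detection for OHCs (blue) and cIHCs (orange), with medians as lines; right, the number with 1 or more reads against all genes with reads in the cell (axis in units of 1000). The medians are 2.5 and 5, then 2 and 5, then 1 and 2; the cell with 14 clustered genes is also the cell with the most genes, 11719.

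The classes of the clusters did not share 1 direction. Summed over all 57 genes, the pooled clusters reached 169 CPM among OHCs (exact Poisson interval 168 to 171) and 128 CPM among cIHCs (127 to 129), giving a log2 ratio of -0.40 (-0.42 to -0.39). Per cell the sums had medians of 125 and 105 CPM, and the cIHC was higher in 48.04% of pairs. More genes per cIHC thus came with a summed level that was no higher. Beta genes made up 3.31% of the clustered counts in OHCs and 38.1% in cIHCs. C-type genes made up 50.4% in OHCs and 12.3% in cIHCs. Gamma A and B genes took 46.3% and 47.9%.

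**Figure D3:**
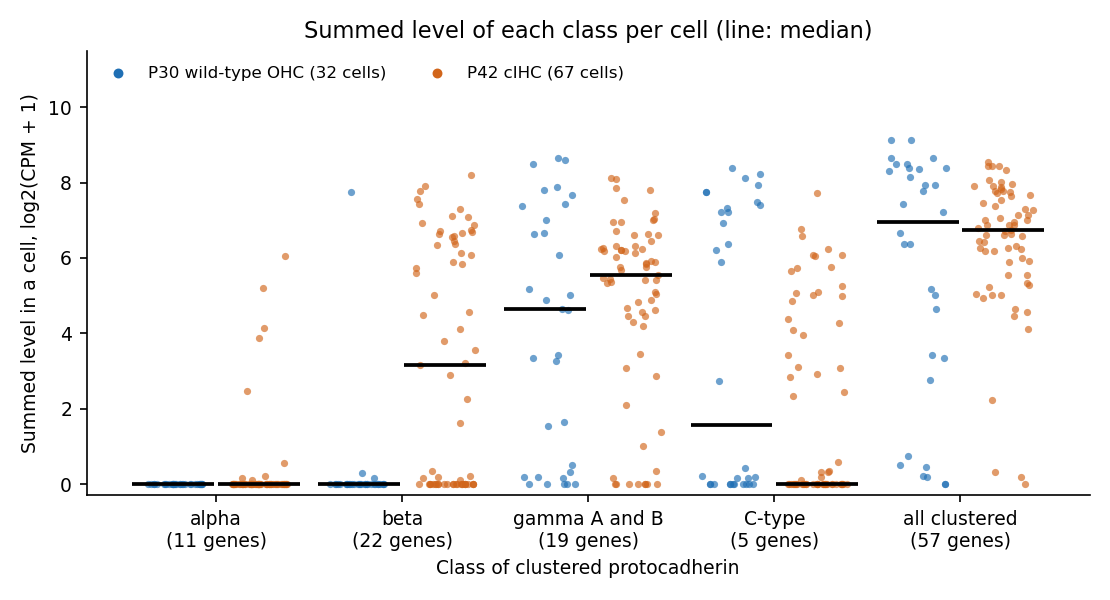
Summed level of each class of clustered protocadherin in each cell, as log2(CPM + 1), for 32 OHCs (blue) and 67 cIHCs (orange), with medians as lines. Beta sums are above 0 in 3 OHCs and 42 cIHCs, and C-type sums in 21 OHCs and 33 cIHCs.

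Beta protocadherins differed in how many cells held them. They had reads in 3 of 32 OHCs (9.38%, 1.98 to 25.0) and 42 of 67 cIHCs (62.7%, 50.01 to 74.2). A beta gene at 10 CPM or more was present in 1 OHC and 32 cIHCs. Pooled levels were 5.60 and 48.8 CPM, a log2 ratio of 3.12 (3.04 to 3.20). A single OHC, OHC 22, held 99.8% of the OHC counts, all of them Pcdhb19. Without OHC 22 and cIHC 49, the OHCs held 3 beta counts (0.0127 CPM) against 49.6 CPM for cIHCs, and the log2 ratio was 11.93. Leaving out OHC 22 and cIHC 49 thus widened the difference. The cIHC had the higher beta sum in 60.6% of pairs and the OHC in 5.55%. Among cells with Y-linked reads the ratio was 11.36, and among cells with Xist reads, where OHC 22 is 1 of 4 OHCs, it was 0.085.

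**Figure D4:**
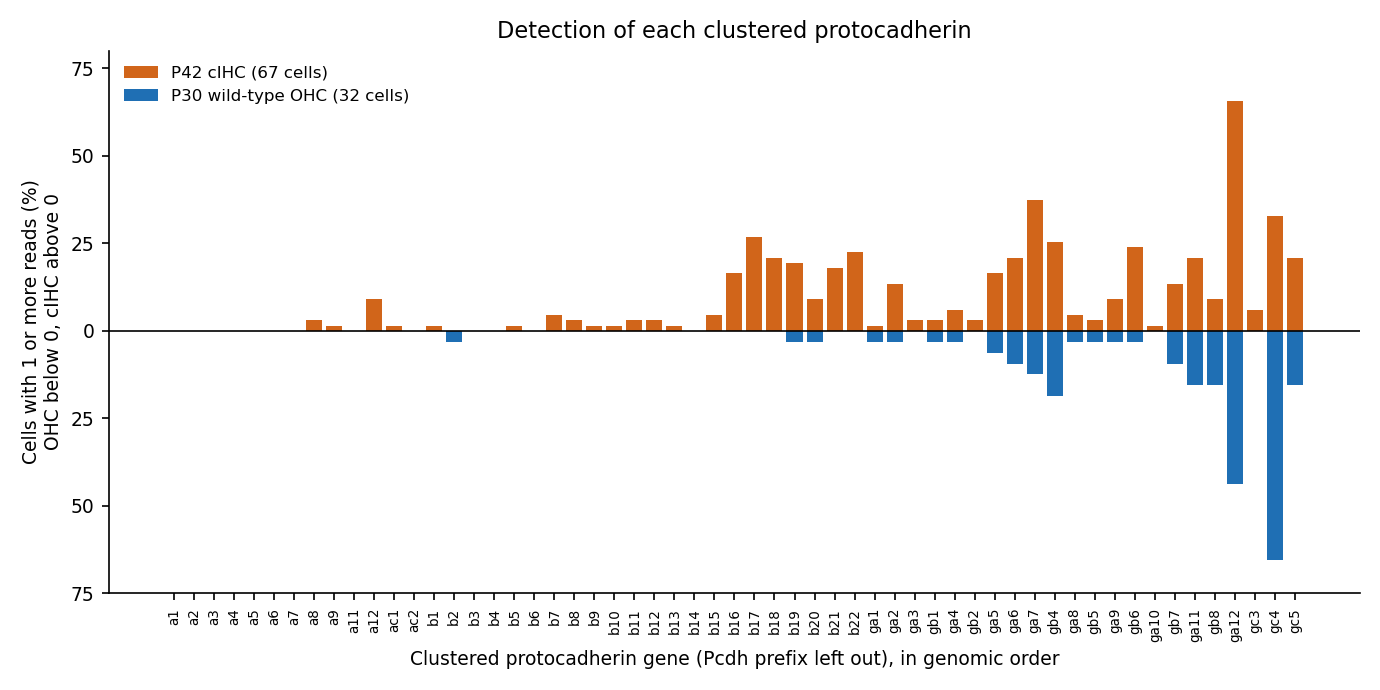
Percentage of cells with 1 or more reads of each clustered protocadherin, in genomic order, with cIHCs (orange) drawn upwards and OHCs (blue) downwards from 0. Detection of beta genes in cIHCs is gathered in Pcdhb16 to Pcdhb22, and the highest bars are Pcdhga12 in cIHCs (65.7%) and Pcdhgc4 in OHCs (65.6%).

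Within the beta cluster, the reads of cIHCs lay towards the gamma side. The last 7 genes in order, Pcdhb16 to Pcdhb22 (37477814 to 37524479), had reads in 6 to 18 cIHCs each (median 13) and summed to 43.5 CPM, 89.3% of the beta level. The first 15, Pcdhb1 to Pcdhb15 (37264938 to 37476340), had reads in 0 to 3 cIHCs each (median 1) and summed to 5.23 CPM, and 5 of them had no cIHC read. Per kilobase of exon, the levels were 1.21 CPM for the last 7 and 0.0972 CPM for the first 15. This division was drawn after the values were seen. Pcdhb21 and Pcdhb22 share some exon bases in the annotation, so their counts may be split.

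Pcdhb17 was the beta gene above 10 CPM (37484795 to 37489454, plus strand). It had no read in any OHC (limits as for Cdh18) and reads in 18 of 67 cIHCs (26.9%, 16.8 to 39.1). Its level in cIHCs ran from 0 to 140 CPM with a median of 0, and 11 cIHCs had at least 10 CPM. The pooled cIHC level was 11.1 CPM, a log2 ratio of at least 9.80 against the floor of 3 counts. Pcdhb16, Pcdhb18, Pcdhb21 and Pcdhb22 also had no OHC read, with reads in 11, 14, 12 and 15 cIHCs. Pcdhb19 had reads in 13 cIHCs and in OHC 22, and Pcdhb20 in 6 cIHCs and, with 2 counts, in 1 OHC. Each of these genes was thus used by a minority of cIHCs.

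C-type genes went the other way, through Pcdhgc4 (37815079 to 37841873). This gene of the gamma cluster is known for its part in the survival of neurons. Its level ran from 0 to 333 CPM per OHC with a median of 0.242 CPM, and from 0 to 152 CPM per cIHC with a median of 0. Reads were present in 21 OHCs (65.6%, 46.8 to 81.4) and 22 cIHCs (32.8%, 21.8 to 45.4), or in 58.6% and 30.3% of thinned cells. At least 10 CPM were reached by 14 OHCs and 12 cIHCs. The OHCs thus divided into cells with a high level and cells near 0, and a smaller share of all cIHCs held reads, although a cIHC had more genes detected. Among the cIHCs, those with Y-linked reads held Pcdhgc4 reads in a larger share of cells than those with Xist reads. Pooled levels were 76.5 CPM (75.4 to 77.6) and 9.93 CPM (9.67 to 10.2), a log2 ratio of -2.95 (-2.99 to -2.90), and the OHC was higher in 58.7% of pairs and the cIHC in 18.2%. The log2 ratio was -3.96 among cells with Xist reads and -1.66 among cells with Y-linked reads. Per kilobase of its own exons Pcdhgc4 stood at 22.004 CPM for OHCs and 2.86 CPM for cIHCs, the highest OHC level per length of the 11 members; reads in the shared gamma exons may be part of it.

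The other C-type genes were sparse. Pcdhgc5 had reads in 5 OHCs and 14 cIHCs at pooled levels of 8.79 and 4.81 CPM (log2 ratio -0.87), and OHC 16 held 54.7% of its OHC counts. Pcdhgc3 and Pcdhac1 had reads in cIHCs alone, at 0.759 and 0.180 CPM. Pcdhac2 had no read. Summed C-type levels were 85.3 and 15.7 CPM, a log2 ratio of -2.44 (-2.48 to -2.41), with medians per cell of 2.98 and 0 CPM. The ratio was -3.38 among cells with Xist reads and -1.08 among cells with Y-linked reads.

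All 19 gamma A and B genes had a read somewhere, 16 of them in both groups. The 19 include Pcdhga10, which has 0 exon bases of its own in GENCODE M21. In that annotation its reads lie on bases shared with other genes, so its detection is uncertain. Summed, the 19 genes had 78.3 CPM among OHCs and 61.3 CPM among cIHCs, a log2 ratio of -0.35 (-0.38 to -0.33). Per cell the order was the other way, with medians of 23.8 and 45.7 CPM, and the cIHC was higher in 53.3% of pairs. Pooled values and medians thus point in opposite directions. A median OHC had reads in 1 of these genes and a median cIHC in 3, with at most 5 and 8.

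Pcdhga12 was the most often detected of them, in 14 OHCs (43.8%, 26.4 to 62.3) and 44 cIHCs (65.7%, 53.1 to 76.8). The median level was 0 in OHCs and 1.05 CPM in cIHCs, and pooled levels were 24.7 and 17.4 CPM (log2 ratio -0.51, -0.55 to -0.46). OHC 30 held 50.03% of the OHC counts, and dropping the highest cell on each side gave a log2 ratio of 0.31. Pcdhga7 had reads in 4 OHCs and 25 cIHCs at 7.80 and 11.2 CPM (log2 ratio 0.52), with 60.7% of its OHC counts in OHC 12; dropping the highest cell on each side took the log2 ratio to 1.61, past 2-fold. For both genes a larger share of cIHCs than of OHCs held reads, whatever the pooled ratio. Since 70.9% of all genes with a read had this direction, it is not read as particular to them. Cells counted as having Pcdhga12 reads include some at very low levels in both groups, such as OHC 23 at 0.111 CPM and cIHC 36 at 0.137 CPM.

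Pcdhgb4 and Pcdhgb8 were lower in pooled cIHCs. Pcdhgb4 ran from 0 to 217 CPM in OHCs and from 0 to 92.9 CPM in cIHCs, with medians of 0, and had reads in 6 OHCs (18.8%, 7.21 to 36.4) and 17 cIHCs (25.4%, 15.5 to 37.5). Its pooled levels were 16.6 and 5.71 CPM, a log2 ratio of -1.54 (-1.61 to -1.47), while the cIHC was higher in 21.9% of pairs and the OHC in 17.4%. The pooled ratio of Pcdhgb4 thus comes from high levels in the few OHCs that had it, not from a larger share of OHCs. Pcdhgb8 ran from 0 to 222 CPM in OHCs and from 0 to 56.5 CPM in cIHCs, with medians of 0, and had reads in 5 OHCs (15.6%, 5.28 to 32.8) and 6 cIHCs (8.96%, 3.36 to 18.5). Pooled levels of 14.001 and 0.851 CPM gave a log2 ratio of -4.04 (-4.18 to -3.90), with the OHC higher in 15.3% of pairs and the cIHC in 7.88%. OHC 22 held 41.1% of its OHC counts; without OHC 22 and cIHC 49 the log2 ratio was -3.29 and Pcdhgb8 no longer reached 10 CPM, and dropping the highest cell on each side gave -6.42, since 1 cIHC held 88.6% of the cIHC counts. After Pcdhgc4, Pcdhga12 and Pcdhgb4, the genes with reads in most OHCs were Pcdhga11, Pcdhgb8 and Pcdhgc5 in 5 each; Pcdhga11 had 5.59 and 5.31 CPM.

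Alpha protocadherins were almost silent. No OHC had an alpha read, with the same limits as for Cdh18. Reads were found in 9 of 67 cIHCs (13.4%, 6.33 to 23.97), never of more than 1 alpha gene in a cell, and in 3 of the 11 genes: Pcdha8, Pcdha9 and Pcdha12. The summed cIHC level was 2.19 CPM, a log2 ratio of at least 7.47 against the floor of 3 counts, and cIHC 67 held 54.5% of the counts.

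Cells of a group differed in which clustered genes were detected. With genes counted at 10 CPM or more, 46 cIHCs held 2 or more and had 46 different sets, so none of these sets was shared. Of 13 such OHCs, 2 shared a set and 12 sets were seen. With cells of a single gene included, 9 of 63 cIHCs shared a set (57 sets) and 7 of 22 OHCs did (18 sets). In the cells with 2 or more, the gene with the most counts took a median of 59.9% of the clustered counts in OHCs and 48.2% in cIHCs. Over all cells with a clustered read, those with a single gene included, the medians were 86.2% and 55.7%. In OHCs the leading gene was Pcdhgc4 in 14 of 30 such cells (46.7%), and 13 genes led in some cell. In cIHCs 24 genes led in some cell: Pcdhga12 in 11 of 66 (16.7%), Pcdhb17 in 7, Pcdhga7 and Pcdhgc4 in 6 each. The 13 and 24 leading genes come from 30 and 66 cells, and such a number can grow with the number of cells. Beta reads occurred together with gamma A or B reads in 37 cIHCs and 3 OHCs, and C-type with gamma A or B reads did so in 31 cIHCs and 18 OHCs. A gene missing from a set may be below detection at this depth, so different sets need not mean different choices.

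Partners of the members were counted from lists of related genes. Each count stands against the background of all genes with at least 10 CPM, of which 26.3% were at least 2-fold higher and 14.3% lower, and nothing particular to a list is read from it. Of 9 catenins and relatives, 7 reached 10 CPM: 2 were at least 2-fold higher in cIHCs, 1 was lower and 4 lay between, shares near that background. Jup (plakoglobin), which links cadherins to the cytoskeleton, had reads in every cell and pooled levels of 302 and 750 CPM (log2 ratio 1.31, 1.30 to 1.33), with medians of 275 and 692 CPM per cell. Arvcf, a p120 catenin relative that binds the cadherin tail, had 2 counts in 1 OHC and 48.5 CPM in cIHCs, with reads in 50 of 67 (log2 ratio 12.52, 10.67 to 15.56). Ctnna2, the neuronal alpha-catenin, was lower at 28.8 and 11.1 CPM (log2 ratio -1.38). Beta-catenin (Ctnnb1) differed little, at 79.0 and 72.4 CPM. Of 5 nectin and afadin genes, 3 reached 10 CPM; Nectin2, an immunoglobulin-like adhesion protein, was higher at 49.97 and 152 CPM (log2 ratio 1.60) and the other two lay within 2-fold.

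Of 26 other genes of the cadherin superfamily, 6 reached 10 CPM: 4 were at least 2-fold higher, 1 was lower and 1 lay between. The background was again 26.3% higher and 14.3% lower, and with 6 genes nothing particular to the list is read from it. The giant cadherins Fat1, Fat3 and Fat4, known from planar polarity and growth control, had no read in any OHC and pooled cIHC levels of 12.6, 26.9 and 13.9 CPM. Their reads lay in 15, 35 and 22 of 67 cIHCs, and 1 cIHC held 44.2% of the Fat1 counts. Celsr2, a planar polarity cadherin, was higher at 6.92 and 16.1 CPM (log2 ratio 1.22). Clstn1, a cadherin of the postsynapse and of vesicle transport, was lower at 81.3 and 27.7 CPM (log2 ratio -1.55), with reads in 30 of 32 OHCs and 50 of 67 cIHCs. Of 13 factors known to regulate the protocadherin clusters, 12 reached 10 CPM and 10 lay within 2-fold, against 5971 of all 10041 genes at that level. Ctcf, whose binding sites flank the clustered promoters, had 56.4 and 79.6 CPM (log2 ratio 0.50). Smchd1, a silencing factor of the clusters, was higher at 23.7 and 55.6 CPM (log2 ratio 1.23), and the cohesin subunit Rad21 was lower at 118.5 and 56.5 CPM (log2 ratio -1.07). Of 6 genes of cadherin cleavage and trafficking, all reached 10 CPM; Psen2, a gamma-secretase subunit, was higher at 11.1 and 31.8 CPM (log2 ratio 1.51) and Adam10, a sheddase of cadherins, lower at 27.2 and 9.10 CPM (log2 ratio -1.58).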

How the data were processed

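Single-cell cDNA libraries of 99 picked mouse cochlear hair cells were read as 1 table of whole-number counts per gene and cell that the authors deposited. The submitters' processing notes name HISAT2 2.2.1, StringTie 2.2.1, featureCounts 2.0.1 and the build mm10; annotation, strand setting and filters are not given in the sources used here. The table has 0 columns of no sample and 0 rows without a gene name. The protocol text, the same for all cells, speaks of endogenous IHCs and iOHCs; the titles were followed. The series' 17 OHCs of an earlier study were not analysed here.

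Columns were matched to cells by title, all cells were kept, and no doublet filter was applied to hand-picked cells. No 2 columns were identical. Counts were summed per group and divided by the group's total; no p-value was computed. A sum of 0 was set to 3 counts over the group and the log2 ratio given as a bound. Intervals are exact Poisson (levels), conditional binomial (ratios) and Clopper-Pearson (shares), at 95%; for 0 cells with reads, 3 cells over the group's number is given as a limit as well. Detection was repeated in cells thinned to 5770000 reads. Exons, positions and overlaps came from GENCODE M21, which may differ from the authors' annotation and held 89 of 89 members and 96.4% of all symbols. Promoters came from RefSeq.

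Members, related gene lists and marker lists were chosen with earlier results of these data known. Named are members with at least 10 pooled CPM in a group, the 5 clustered genes with reads in most cells of each group, ties included, and listed related genes past 2-fold at 10 CPM. Cdh1, Cdh2, Cdh6, Cdh24, Pcdh1, Pcdh9, Pcdh12, Pcdh19, Pcdh20, Pcdhac1, Pcdhac2, Pcdhgc3, Pcdhga10, Pcdh11x, the named alpha genes, the beta genes beside Pcdhb17, Ctnnb1 and Ctcf were named after their values were seen. TMM factors came from edgeR 4.0.16 in R 4.3.3; other steps used Python 3.11.15, with matplotlib 3.10.9, scipy 1.17.1, pandas 2.3.3 and numpy 2.4.6. The ratio step was tested on simulated data. Simulated counts were spread over the cells of a group, so the test does not cover members whose counts lie in few cells. Alternatives are given at the end.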

Additional observations from a re-analysis of the deposited data

How the results depend on the processing

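No paired analysis was possible because each cell is a sample of its own, the cell numbers of the groups are unrelated and no test was made. The TMM factor lowered every log2 ratio by 0.19 and median-of-ratios scaling by 0.20, which took the median of all genes from 0.25 to 0.057 and 0.047. Settings for single classes and the exclusion of OHC 22 and cIHC 49 were added after seeing the data. The summed beta ratio of 3.12 was 2.93 with TMM, 2.92 with median-of-ratios scaling, 2.83 with the mean of CPM per cell, at least 7.59 in the shared range of genes with reads (no OHC read), 0.085 in cells with Xist reads (4 OHCs, OHC 22 among them, and 55 cIHCs), 11.36 in cells with Y-linked reads (24 and 12), 11.93 without OHC 22 and cIHC 49 and 11.82 when the highest cell on each side was dropped. The C-type ratio of -2.44 was -2.64 and -2.65 with the 2 scalings, -2.49 without mitochondrial genes in the totals, -2.31 with the mean, -1.83 in the shared range, -3.38 with Xist and -1.08 with Y-linked reads. The gamma A and B ratio of -0.35 was -0.55 with either scaling, -0.40 without mitochondrial genes, -0.46 with the mean, -0.068 in the shared range, -0.018 with Y-linked reads, -0.28 without the 2 cells and -0.23 without the highest cell; medians of CPM per cell turned it to 0.94. The ratio of all clustered genes, -0.40, was -0.60 with either scaling, -0.45 without mitochondrial genes, -0.46 with the mean, -0.24 with the median, -0.17 in the shared range, -0.996 with Xist, -0.0026 with Y-linked reads, -0.30 without the 2 cells and -0.35 without the highest cell. The 7 members past 2-fold became 25 of 38 with a 1 CPM minimum (17 higher, 8 lower) and 1 of 2 with 50 CPM. They became 43 of 58 with no minimum (35 higher, 8 lower) and 1 of 1 with the median of CPM per cell. Of all genes, 33.97% were higher and 19.71% lower with 1 CPM, and 20.46% and 12.17% with 50 CPM. With no minimum these shares were 42.56% and 18.80%, and with the median of CPM per cell 44.57% and 9.57%. Splits of higher against lower were 4 to 3 in the main values and 3 to 3 with TMM, median-of-ratios scaling and the mean. They were 4 to 6 with Xist and 6 to 3 with Y-linked reads. Of all genes, 26.27% were higher and 14.26% lower in the main values, and 21.70% and 17.96% with TMM. The shares were 21.50% and 18.17% with median-of-ratios scaling and 25.78% and 14.48% with the mean. With Xist reads they were 40.71% and 21.38%, and with Y-linked reads 28.49% and 20.50%. Nothing particular to the members is read from these counts and splits. The members' median ratio of 0.52 was 0.32 with either scaling, 0.19 with the mean, 4.36 with the median of CPM per cell, 0.98 with Y-linked reads, 0.69 without the highest cell, 0.74 with 1 CPM and 2.33 with no minimum. It turned to -1.23 with Xist reads and -1.21 with 50 CPM. For all genes the median was 0.23 with the mean, 0.73 with the median of CPM per cell and 0.17 with Y-linked reads. Without the highest cell it was 0.50, with 1 CPM 0.31 and with no minimum 0.58. With Xist reads it was 0.41 and with 50 CPM 0.19. The difference of 2.5 between median numbers of clustered genes per cell was 1 at 10 reads, 1 CPM or 10 CPM and 0.5 in the shared range. Single members turned in direction in 10 of 100 values: Cdh13 with median-of-ratios scaling (-0.0033) and Xist (-1.23); in the shared range with its 2 OHCs, Cdh15 (-1.31), Pcdhga7 (-1.25), Pcdhga12 (2.22), Pcdhgb4 (5.11) and Pcdhgb8 (3.16); with Xist, Pcdhga12 (8.82) and Pcdhgb4 (5.52); and Pcdhga12 without the highest cell (0.31). Median CPM per cell gave no ratio for beta, C-type and most members, since a group's median is 0. Beyond fewer cells in the subsets, the cause of these changes was not tested. Depth limits members with reads in few cells.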
